A study of Rattus norvegicus with 6 samples.

Results

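Receptors for odours and pheromones fill large gene arrays of the rat genome, and the accessible chromatin sites (ACS) nearest to them are described here in pancreatic islets of adult and newborn rats. An ACS was included when the gene symbol that the deposited table gives as its nearest gene was Olr followed by digits, or began with Vom1r, Vom2r or Taar. The rule used no measured value. It took 1525 of the 101603 distinct ACS, namely 1068 near olfactory receptor genes (Olr), 401 near type 2 vomeronasal receptor genes (Vom2r), 36 near type 1 vomeronasal receptor genes (Vom1r) and 20 near trace amine-associated receptor genes (Taar). They carry 352 gene symbols on 19 chromosomes.

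Open chromatin was measured by ATAC-seq, in which the Tn5 transposase inserts sequencing adapters into accessible DNA, in dissociated islet cells of wild-type Sprague–Dawley rats. The 3 adult libraries came from male rats of about 3 months, and the 3 P10 libraries came from pooled male and female pups of 3 litters at postnatal day 10, when rat islets are still immature. No treatment or transgene was used in either group. Age, sex, and single rats against pooled pups differed together, so they cannot be told apart. In these bulk samples, fewer cells of a type and less accessibility per cell cannot be told apart either.

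Each olfactory sensory neuron transcribes one olfactory receptor gene and keeps the rest of the repertoire in closed chromatin. Vomeronasal neurons use Vom1r genes, which signal through the G protein subunit encoded by Gnai2, or Vom2r genes, which signal through that of Gnao1, and Taar proteins detect amines in the nose. Islets are not known as a site of this repertoire as a whole, though single olfactory receptors, such as the fatty acid receptors of the Or51e subfamily, are known outside the nose.

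Promoters are shown first for the 3 receptor genes whose ACS of class TSS, the class nearest to a gene start, had the highest levels. The sequences are the 250 bases before the annotated start in RefSeq on the GRCr8 build, 5′ to 3′ on the gene's strand, whereas the ACS were mapped on Rn5, whose gene start may differ. They lie at chr1:166565271-166565520 (Olr61, minus strand), chr1:23301332-23301581 (Taar4, minus strand) and chr1:166610904-166611153 (Olr59, minus strand). Capitals mark CpG dinucleotides and, in Olr59, a TATA box motif on the opposite strand.
Olr61: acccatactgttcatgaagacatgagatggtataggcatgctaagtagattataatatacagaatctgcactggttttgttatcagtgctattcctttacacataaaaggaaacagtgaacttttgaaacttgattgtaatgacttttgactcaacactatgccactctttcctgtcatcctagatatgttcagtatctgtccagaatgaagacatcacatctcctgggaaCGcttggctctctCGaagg
Taar4: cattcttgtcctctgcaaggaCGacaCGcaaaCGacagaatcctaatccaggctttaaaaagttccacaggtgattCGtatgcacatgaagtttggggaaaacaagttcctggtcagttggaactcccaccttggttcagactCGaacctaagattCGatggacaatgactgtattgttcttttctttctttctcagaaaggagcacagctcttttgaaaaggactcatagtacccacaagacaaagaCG
Olr59: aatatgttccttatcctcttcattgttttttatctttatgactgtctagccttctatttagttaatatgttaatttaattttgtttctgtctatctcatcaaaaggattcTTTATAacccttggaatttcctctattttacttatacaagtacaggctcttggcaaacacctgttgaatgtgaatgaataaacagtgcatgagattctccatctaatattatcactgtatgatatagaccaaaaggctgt
On Rn5, the ACS of Olr61 covered the bases from 51 to 1390 bp upstream of the start, so it reached into this window, while that of Taar4 lay from 598 to 1195 bp upstream and that of Olr59 from 211 to 826 bp inside the gene.

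Receptor promoters had few CpG dinucleotides as a class. All 365 gene IDs behind the 352 symbols matched a RefSeq entry, and 307 had a promoter sequence. In these 250 bases the median GC content was 36.4%, against 51.2% over the 33469 promoters of all genes, and the median number of CpG was 1 against 5. At least 10 CpG were found in 0.326% of receptor promoters and in 35.9% of all promoters. Searched on both strands, the EBF motif CCCNNGGG, named for factors of olfactory neurons, was in 1.95% of receptor promoters and in 10.8% of all, the homeodomain motif TAATTA in 14% against 4.86%, and the TATA motif TATAAA in 30.0% against 12.9%. Matches could overlap, and each promoter was counted once per motif. These are letters in a window and not sites of binding. CCCNNGGG fixes only G and C, and TAATTA and TATAAA hold only A and T. The part of the lower GC content of receptor promoters in these shares was not tested.

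The receptor ACS were weak in islets. Counts are Tn5 integrations, given as CPM, that is, scaled to an equal library total over all ACS after TMM correction (trimmed mean of M values). The median of the mean CPM was 2.39 for receptor ACS and 4.74 for all other ACS, and the median width was 316 bp against 374 bp. By family the median was 2.22 CPM for Olr, 3.15 for Vom2r, 1.17 for Vom1r and 4.47 for Taar. The 687 ACS near other tandem gene families, such as keratins, kallikreins and serpins, had a median of 3.76 CPM, and the 1289 ACS near zinc finger genes one of 5.40 CPM. Levels of ACS are not divided by their width.

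Hardly any receptor ACS lay at a gene start. The deposited class TSS, which held distances of up to 999 bp from the start, covered 17 receptor ACS (1.11%) against 11.0% of the other ACS. None of the 1525 overlapped the start itself, against 8.65% of the other ACS. ACS inside the gene made up 6.49% against 22.3%. Most receptor ACS were distal (79.3%, the same share as the other ACS), and 562 (36.9%, against 31.0% of the other ACS) lay outside the gene and more than 100 kb from it. A receptor name marks the nearest annotated gene. Within the arrays the ACS were close together, with a median gap of 6595 bp between neighbouring receptor ACS and of 12930 bp between neighbouring other ACS.

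Adult and P10 islets gave receptor ACS a similar share of their integrations. The share was 1.03%, 1.53% and 1.22% in the adult libraries 4, 5 and 6 and 1.09%, 1.29% and 1.29% in the P10 libraries 1, 2 and 3. The groups overlapped, with means of 1.26% ± 0.25 (SD, n = 3) and 1.22% ± 0.11 (SD, n = 3), and the adult values spread over more than the P10 values. The median log2 fold change of adults over P10 was 0.01 over the receptor ACS and -0.01 over all other ACS.

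**Figure D1:**
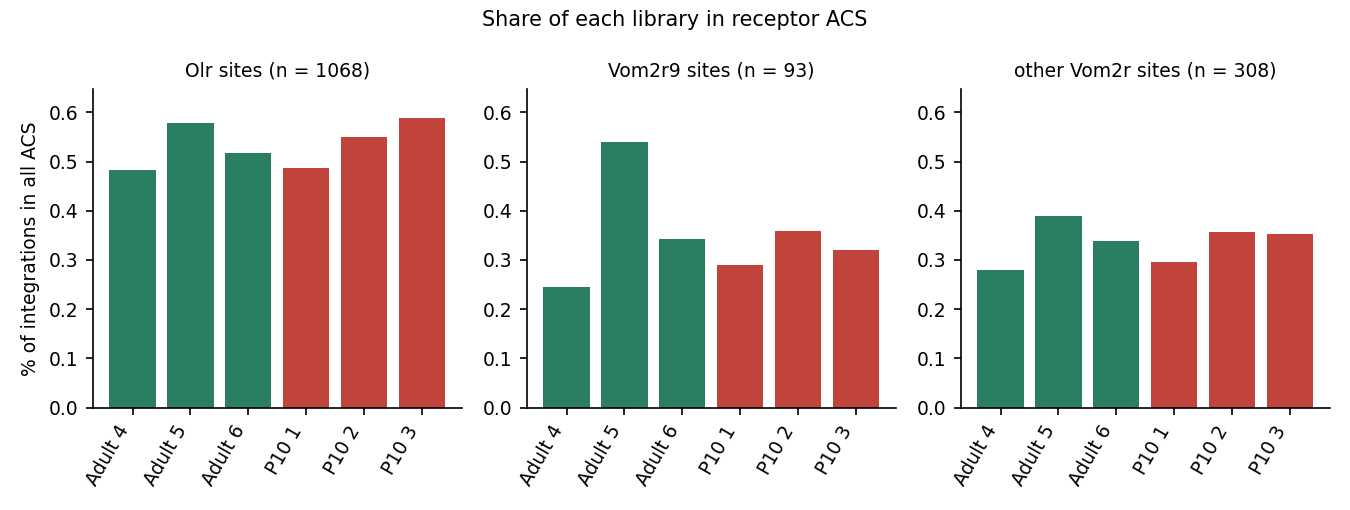
Percent of each library's integrations in all ACS that fell in Olr ACS, in the ACS of Vom2r9 and in the other Vom2r ACS (y axis), 1 bar per library (x axis, adults in green and P10 in red). The Vom2r9 bar of adult library 5, at 0.54%, stands above the other 5 libraries, which lie between 0.25% and 0.36%.

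Adult library 5 stood apart over these loci. Its CPM was the highest of the 6 libraries at 36.4% of receptor ACS, but at 16.3% of the other ACS, and adult library 4 was lowest at 541 of the 1525 receptor ACS. The difference was steepest at Vom2r9, a single gene of chromosome 1 to which 93 consecutive ACS between chr1:56584912 and chr1:57229270 are assigned. Library 5 was highest at 90 of these 93 ACS. The ACS of Vom2r9 took 0.25%, 0.54% and 0.34% of the integrations of the adult libraries 4, 5 and 6 and 0.29%, 0.36% and 0.32% of the P10 libraries. Without them, the share of receptor ACS was 0.78%, 0.99% and 0.88% in adults and 0.80%, 0.93% and 0.97% in P10 islets. Receptor arrays hold near-identical copies, and the authors had discarded reads with a mapping quality (MAPQ) under 30. How the remaining reads divide among copies was not tested, so the levels of single members of an array are uncertain. What sets library 5 apart was not tested.

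**Figure D2:**
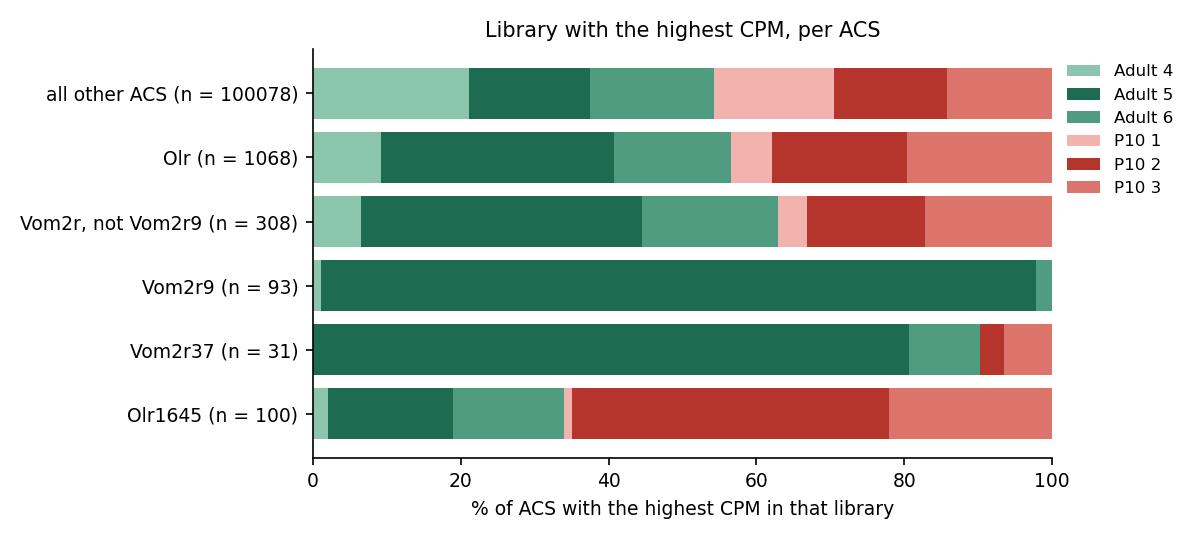
Percent of ACS (x axis) whose highest CPM was in each of the 6 libraries (colours), for all other ACS, Olr, Vom2r without Vom2r9, and the ACS of Vom2r9, Vom2r37 and Olr1645 (y axis). Adult library 5 holds the maximum at 90 of 93 ACS of Vom2r9 and 25 of 31 of Vom2r37, and P10 library 2 at 43 of 100 of Olr1645.

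The samples were islets by their markers, whose levels are given here for whole lists. Of 14 islet genes, 12 had an ACS of class TSS, with summed levels of 278 to 383 CPM in adults and 336 to 503 CPM in P10 islets. Ductal genes (3 of 4, 17.5 to 20.2 CPM in adults and 24.7 to 34.4 CPM in P10) and acinar genes (2 of 6, 4.34 to 6.52 CPM and 7.08 to 8.49 CPM) had higher sums in every P10 library than in any adult library. Sums of endothelial genes (2 of 4, 23.5 to 31.7 CPM and 28.9 to 35.5 CPM) and stromal genes (3 of 4, 12.3 to 16.5 CPM and 16.5 to 21.1 CPM) overlapped between the ages. None of 5 immune genes had a TSS-class ACS. Of 5 olfactory neuron genes, Adcy3 alone had one (5.60 to 7.35 CPM in adults and 6.24 to 6.55 CPM in P10), and Omp, Gnal, Cnga2 and Ano2 had none. The part of these cells in the results was not tested. Libraries held 7916919 to 11903909 integrations in adults and 13491534 to 21168463 in P10 islets.

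Receptor ACS were called less often than ACS in general. An ACS counted as Up (higher in adults) or Down (higher in P10) when p was below 0.05 and the FDR below 0.2 in edgeR's quasi-likelihood test with Benjamini-Hochberg adjustment over all ACS. Among the receptor ACS, 59 were Up (3.87%) and 65 Down (4.26%), beside a background over all ACS of 12.3% Up and 6.63% Down. Leaving out 1 library changed the counts by over 1.5 times for 3 libraries, giving 125 Up without adult library 4, 38 Up and 27 Down without P10 library 2, and 27 Down without P10 library 3. The background moved too, to 9.56% Up and 5.37% Down without adult library 4, 7.85% and 3.23% without P10 library 2, and 8.77% and 4.17% without P10 library 3. It was 13% and 7.1% without adult library 5, 10.7% and 4.96% without adult library 6, and 12.8% and 6.78% without P10 library 1. Of the 59 Up ACS, 30 stayed Up in each of the 6 fits without a library (50.8%, against 51.4% of Up calls among all other ACS). Of the 65 Down ACS, 16 stayed Down (24.6%, against 27.5% of Down calls among all other ACS). With no overlap between the ages, 79 receptor ACS were higher in adults (5.18%, background 13.8%) and 119 in P10 (7.80%, background 10.9%). ACS near the other tandem families were called Up in 9.32% and Down in 5.97%, and those near zinc finger genes in 10.2% and 5.04%. Among the 1209 distal receptor ACS, 53 were Up (4.38%) and 56 Down (4.63%), beside 13.8% and 6.45% over all distal ACS.

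Other limits and tools gave more or fewer calls. With an FDR below 0.05, 33 receptor ACS were Up and 18 Down, beside a background of 7.06% and 1.91%. DESeq2 called 53 Up and 45 Down (background 11.4% and 5.73%), and limma voom 55 and 59 (12.2% and 6.16%). Cyclic loess gave 62 Up and 65 Down (10.9% and 8.96%) and column sums 46 and 95 (10.3% and 10.6%). Filters left fewer receptor ACS to test. With edgeR's filterByExpr, 58 of 1425 receptor ACS were Up and 63 Down (background 12.5% and 6.9%). A minimum mean of 50 counts gave 38 Up and 44 Down of 524 receptor ACS (background 15.4% and 11.8%). Scaling by the total read numbers of the libraries moved nearly the whole table towards P10, with 8 Up and 779 Down (1.05% and 60.7%), and put the median log2 fold change of all ACS at -0.84. Under that scaling the median of the receptor ACS was -0.80.

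The smaller share of calls was not limited to weak sites. With a mean of 200 counts or more per library, 9.43% of 159 receptor ACS were Up and 3.77% Down, against 16.3% and 5.19% of the 17264 other ACS. Of these 159 receptor ACS, 62 were of Vom2r9, where adult library 5 stood apart. Of all 93 ACS of Vom2r9, 2 were Up and 0 Down. Shares at this level without Vom2r9 were not computed. Between 50 and 200 counts, 9.04% of 365 receptor ACS were Up and 5.75% Down, against 17.8% and 6.58%. Between 20 and 50 counts the shares were 1.99% and 3.98% of 553 receptor ACS against 6.51% and 8.02%. Under 20 counts, which 448 receptor ACS (29.4%) had but 10.3% of the others, 0% were Up and 3.57% Down, against 0.50% and 5.68%. The P10 libraries held more integrations than the adult ones, and the part of depth in these shares was not tested.

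**Figure D3:**
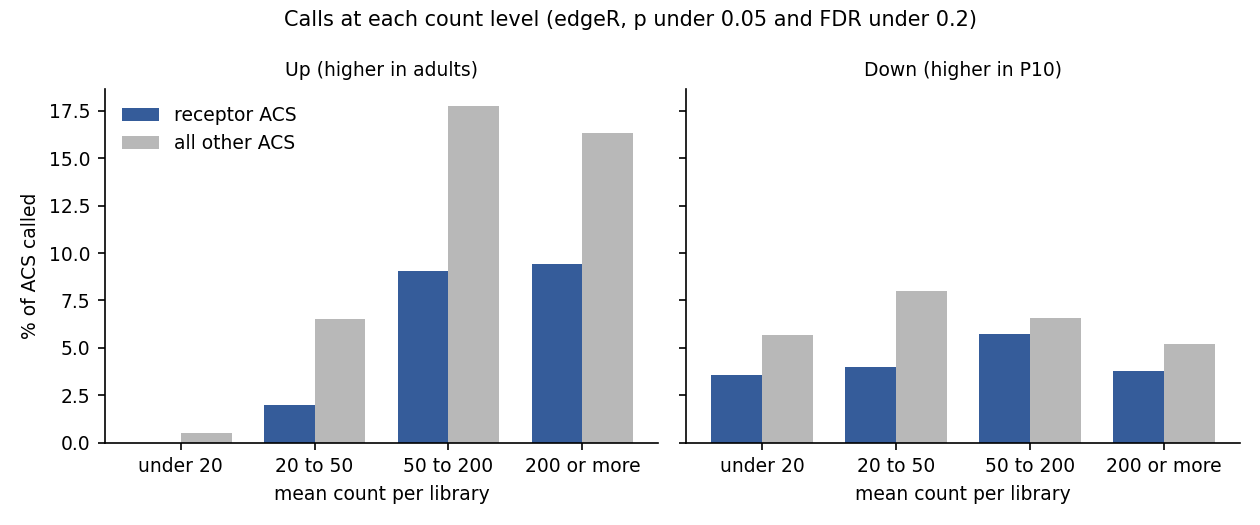
Percent of ACS called Up (left) and Down (right) by mean count per library (x axis), for receptor ACS in blue and all other ACS in grey. The blue bar is the lower of the pair in all 4 count classes of both panels.

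The Olr family, with 1068 of the 1525 receptor ACS, held most of the calls. It had 43 Up and 57 Down ACS (4.03% and 5.34%), beside 12.3% and 6.63% over all ACS. Without P10 library 2 these were 27 and 24, and without P10 library 3 there were 25 Down. Vom2r had 12 Up and 5 Down ACS of 401 (2.99% and 1.25%), and these counts moved with single libraries. The Up count was 83 without adult library 4, 59 of them of Vom2r9, 6 without adult library 5 and 7 without P10 library 3. The Down count was 0 without P10 library 3, 2 without P10 library 2, 8 without adult library 4 or 6, and 12 without adult library 5 or P10 library 1. Vom1r had 0 Up and 2 Down ACS of 36 (0% and 5.56%), and 1 Down without adult library 6, P10 library 2 or P10 library 3. DESeq2 called 0 Vom1r ACS, and 2 had an unadjusted p-value under 0.05 in edgeR. Taar had 4 Up and 1 Down ACS of 20 (20% and 5%), the largest Up share of the families, and 2 Up and 0 Down without P10 library 2. Of these 20 ACS, 10 neighbouring ones assigned to Taar8c, with 2 Up and 1 Down, lie between those of Eya4 and Tcf21. In GRCr8 no receptor gene lies between Eya4 and Tcf21.

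**Figure D4:**
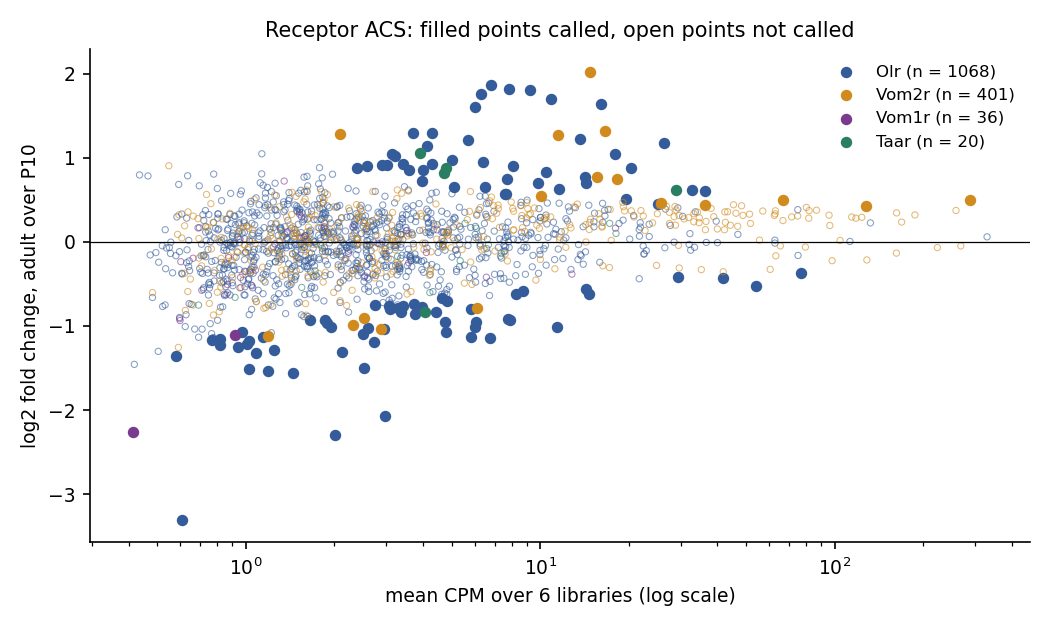
Log2 fold change of adults over P10 (y axis) against the mean CPM over 6 libraries (x axis, log scale) for the 1525 receptor ACS, coloured by family, with filled points for called ACS. The strongest Up call is an ACS of Vom2r77 at 2.03, and no Up call lies below 2 CPM, while Down calls do.

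Among olfactory receptors, the strongest Up call by p-value lay next to Olr63 (Or51e1 in GRCr8), which belongs to a subfamily of fatty acid receptors. This ACS (chr1:174048979-174049516, Rn5) is 4637 bp upstream of the gene. Its levels were 27.8, 20.7 and 24.8 CPM in adults and 8.37, 6.85 and 8.19 CPM in P10 islets. Every adult library was above every P10 library, and the log2 fold change was 1.64 (standard error 0.21, FDR 7.63e-06, edgeR's quasi-likelihood test). The call held without any one library.

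The neighbouring receptors of this array did not all move one way, which was noticed after the values were seen. Olr59 encodes Or51e2, known in mice as Olfr78 and as a receptor for short-chain fatty acids. Its TSS-class ACS (chr1:174087277-174087892), inside the gene, had 4.97, 5.26 and 6.06 CPM in adults and 10.6, 9.91 and 10.4 CPM in P10 islets. The P10 libraries were all higher, with a log2 fold change of -0.93 (standard error 0.24, FDR 0.013), and the call held without any one library. A second ACS in Olr59 (chr1:174085563-174086183) fell too, with 10.8, 10.1 and 13.7 CPM against 18.1, 14.2 and 20.7 CPM (log2 fold change -0.62, FDR 0.074), and lost its call without P10 library 3 (FDR 0.293).

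A stronger ACS of Olr63 (chr1:174033072-174033834, 20544 bp upstream of the gene) was Down. Its levels were 48.3, 42.9 and 42.0 CPM in adults and 58.9, 65.1 and 68.1 CPM in P10 islets, with no overlap and a log2 fold change of -0.53 (standard error 0.15, FDR 0.028). The ACS at the start of Olr61 (Or51a39, chr1:174061392-174062731), whose promoter is printed above, gave 17.5, 12.1 and 21 CPM and 13.4, 10.2 and 13.5 CPM. The ages overlapped there, and the difference did not pass the test (log2 fold change 0.44, FDR 0.27). An ACS of Olr60 (FDR 0.586), 1 more of Olr63 (FDR 0.251) and 1 more of Olr59 (FDR 0.238) did not pass either.

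Both other Olr ACS named as Up by p-value lay farther from their genes than this one. An ACS 10276 bp upstream of Olr436 (chr3:79262931-79263332) had 14.4, 12.4 and 9.80 CPM in adults and 3.63, 3.07 and 3.65 CPM in P10 islets (log2 fold change 1.82, standard error 0.26, FDR 2.55e-05). An ACS assigned to Olr1455 (chr11:58929477-58929795) lay 266812 bp downstream of the gene and had 21.4, 12.5 and 16 CPM against 5.07, 5.56 and 4.76 CPM (log2 fold change 1.70, standard error 0.24, FDR 3.16e-05). At both, the adult libraries lay above the P10 libraries, and both calls held without any one library.

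The Down calls of Olr with the smallest p-values were at weak ACS. An ACS 38108 bp downstream of Olr234 (chr1:178317451-178317804) had 1.36, 0.97 and 1.03 CPM in adults and 3.58, 5.28 and 5.55 CPM in P10 islets (log2 fold change -2.08, standard error 0.37, FDR 0.00035). An ACS 104899 bp upstream of Olr204 (chr2:4674482-4674831) had 0.54, 0.29 and 1.29 CPM against 2.18, 3.21 and 4.55 CPM (log2 fold change -2.29, standard error 0.47, FDR 0.0017). These groups did not overlap, and both calls held without any one library. An ACS 4270 bp upstream of Olr7 (chr1:71886000-71886204) had 0.18, 0 and 0.13 CPM in adults and 0.84, 1.28 and 1.22 CPM in P10 islets (log2 fold change -3.31, standard error 0.73, FDR 0.0025). Its size rests on a few integrations in adults.

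**Figure D5:**
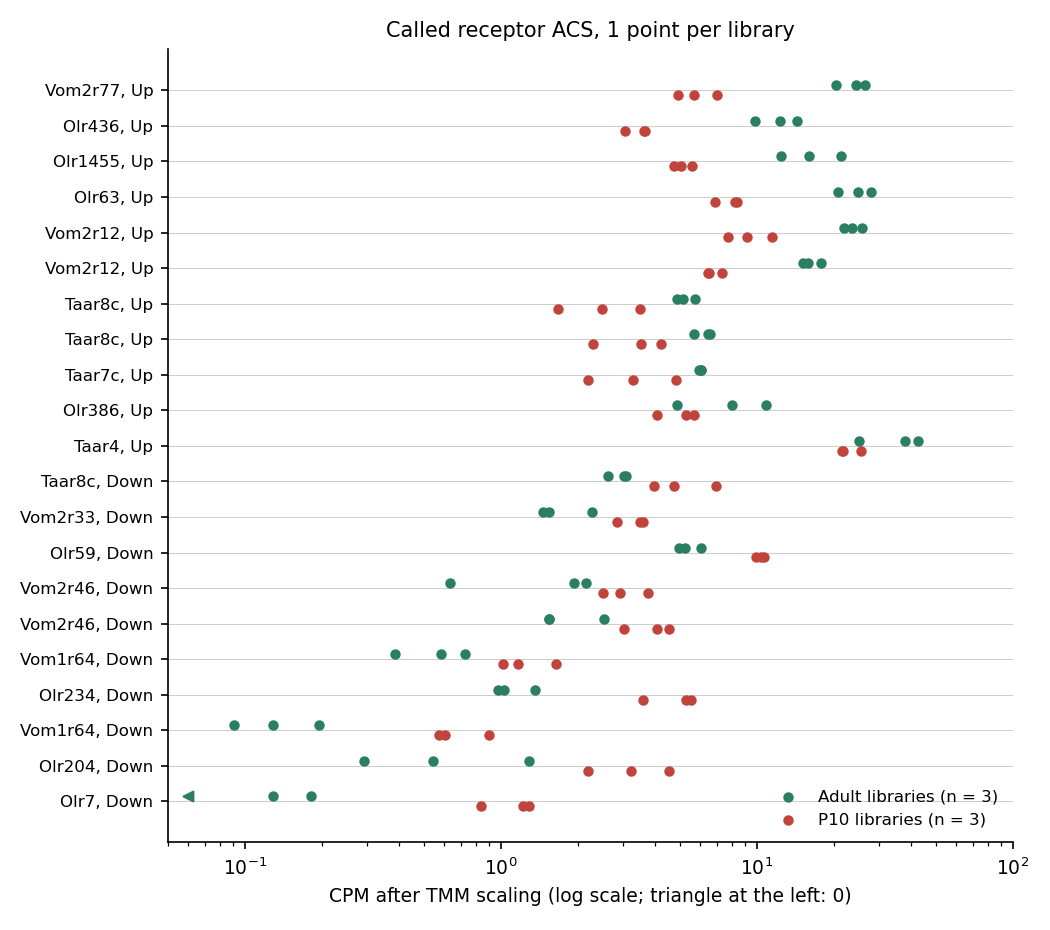
CPM after TMM scaling (x axis, log scale) of the called receptor ACS named by p-value or as TSS class (y axis, with their call), 1 point per library, adults in green and P10 in red. The groups are apart in every row but those of Taar4 and Olr386, and the adult values under 0.2 CPM are at Olr7 and Vom1r64. A triangle marks a value of 0.

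Among vomeronasal receptors, the largest rise was near Vom2r77. This ACS (chr9:6884368-6884778, 29779 bp upstream) had 26.4, 20.5 and 24.4 CPM in adults and 4.93, 6.99 and 5.66 CPM in P10 islets. Adults were above P10 in every library, with a log2 fold change of 2.03 (standard error 0.22, FDR 9.35e-07). A pair of ACS upstream of Vom2r12 rose as well. The one 48868 bp away (chr1:64424437-64425181) had 25.8, 21.9 and 23.6 CPM against 11.5, 7.70 and 9.15 CPM (log2 fold change 1.32, FDR 0.00011), and the one 119700 bp away (chr1:64353605-64354028) had 15.9, 15.1 and 17.8 CPM against 6.51, 6.42 and 7.30 CPM (log2 fold change 1.27, FDR 0.00033). All 3 calls held without any one library.

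The named Down calls near vomeronasal receptors were at ACS of lower level. An ACS 14939 bp upstream of Vom2r46 (chr2:174163429-174163791) had 1.54, 2.53 and 1.55 CPM in adults and 3.02, 4.07 and 4.55 CPM in P10 islets (log2 fold change -1.04, FDR 0.0625), and lost its call without P10 library 3 (FDR 0.231). A second ACS of Vom2r46, inside the gene (log2 fold change -0.99, FDR 0.137), was not called without adult library 4 (FDR 0.461), P10 library 2 (FDR 0.248) or P10 library 3 (FDR 0.394). That of Vom2r33 (chr1:66655794-66656122), at -0.90 (FDR 0.116), was not called without adult library 5 (FDR 0.237), adult library 6 (FDR 0.250), P10 library 1 (FDR 0.205) or P10 library 3 (FDR 0.253). Both called ACS of Vom1r lay upstream of Vom1r64. The weaker of them (chr9:100806948-100807149) had 0.09, 0.19 and 0.13 CPM against 0.60, 0.57 and 0.90 CPM (log2 fold change -2.26, standard error 0.70, FDR 0.032), and was called without any one library. Its size rests on 4 integrations over the adult libraries and 38 over the P10 libraries. The other (chr9:100780604-100780833; log2 fold change -1.11, FDR 0.169) was not called without adult library 5 (FDR 0.235), adult library 6 (FDR 0.371), P10 library 2 (FDR 0.458) or P10 library 3 (FDR 0.259).

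Among the TSS-class ACS, the highest was that of Taar4, a receptor for phenylethylamine. Its ACS (chr1:24035355-24035952, 598 bp upstream) had 37.9, 25.1 and 42.5 CPM in adults and 21.5, 21.8 and 25.5 CPM in P10 islets. The lowest adult library lay under the highest P10 library. The log2 fold change of 0.62 (standard error 0.19, FDR 0.040) was called, but not without adult library 6 (FDR 0.224). The median of the 17 TSS-class receptor ACS was 2.61 CPM, against 16.7 CPM over the 11038 other TSS-class ACS, and 13 of the 17 were under 5 CPM.

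Besides Taar4 and Olr59, 1 more TSS-class ACS was called, so that 2 of the 17 were Up and 1 Down, beside 2.73% and 7.87% of all TSS-class ACS. It lay at Olr386 (Or6al2, chr1:63478646-63479197), 19 bp inside the gene, with 4.88, 10.9 and 7.99 CPM in adults and 5.30, 5.71 and 4.07 CPM in P10 islets. The ages overlapped, and the log2 fold change of 0.66 (FDR 0.173) was called without adult library 4 but in no other fit that left out a library, where the FDR ran from 0.205 (without P10 library 1) to 0.576 (without adult library 5), with 0.261 without P10 library 2, 0.262 without adult library 6 and 0.451 without P10 library 3. The ACS 809 bp upstream of Olr542 had 3.34, 5.75 and 4.64 CPM in adults and 4.09, 4.99 and 5.18 CPM in P10 islets, a difference that did not pass the test (log2 fold change -0.06, FDR 0.949).

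The remaining Taar calls were around Taar8c and Taar7c, and those of Taar8c lie in the stretch between Eya4 and Tcf21 named above. An ACS 58749 bp downstream of Taar8c (chr1:25095984-25096250) had 4.88, 5.75 and 5.16 CPM in adults and 1.67, 3.49 and 2.48 CPM in P10 islets (log2 fold change 1.06, FDR 0.033), and its call held without any one library. A nearer one (chr1:25057667-25058021; log2 fold change 0.88, FDR 0.058) was not called without P10 library 2 (FDR 0.316). Another (chr1:25099472-25099928), 62237 bp downstream, went the other way, with 2.62, 3.02 and 3.09 CPM against 4.74, 6.92 and 3.96 CPM (log2 fold change -0.83, FDR 0.099), and was not called without adult library 4 (FDR 0.238) or P10 library 2 (FDR 0.451). The ACS 5840 bp downstream of Taar7c (chr1:23977272-23977713) had 5.96, 6.04 and 6.06 CPM against 2.18, 3.28 and 4.81 CPM (log2 fold change 0.82, FDR 0.098), and was not called without P10 library 1 (FDR 0.310) or P10 library 2 (FDR 0.268).

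Of the 5 highest receptor ACS, 1 was called. The highest of all lay 82973 bp upstream of Olr898 (chr7:5317777-5318980), with 316, 363 and 331 CPM in adults and 239, 333 and 396 CPM in P10 islets. The ages overlapped (log2 fold change 0.06, FDR 0.878). An ACS of Vom2r1 on chromosome 1 (chr1:171394-172177; log2 fold change -0.05, FDR 0.897) and one of the gene with the same symbol on chromosome 10 (chr10:112100735-112101728; -0.07, FDR 0.845) held mean levels of 268 and 223 CPM. In all, 17 receptor ACS exceeded 100 CPM, 14 of them of Vom2r.

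The other 2 of the 5 highest lay inside Vom2r37 as annotated on Rn5, 263 bp apart. On Rn5 the gene spans 141 kb, against 61.7 kb in GRCr8. Between Siglec5 and Klk1c12, the genes flanking the ACS of Vom2r37, GRCr8 has 0 receptor genes and 28 other named coding genes. The higher of these 2 ACS (chr1:100135933-100136662) had 215, 465 and 331 CPM in adults and 232, 249 and 233 CPM in P10 islets. It was called Up (log2 fold change 0.50, FDR 0.077), although adult library 4 lay under all 3 P10 libraries, and was not called without adult library 5 (0.19, FDR 0.449) or P10 library 3 (FDR 0.242). Its neighbour (chr1:100134213-100135669; 175, 399 and 300 CPM against 223, 237 and 216 CPM) did not pass the test (log2 fold change 0.37, FDR 0.236). In Vom2r37 as a whole, 5 of 31 ACS were Up and 0 Down, with 16 Up without adult library 4, 2 without adult library 5 or P10 library 3, and 3 without adult library 6. The called ACS whose ages did not overlap were chr1:100123683-100124004 (log2 fold change 0.74, FDR 0.020) and chr1:100172143-100172445 (0.77, FDR 0.026), and both were called without any one library. The remaining pair were chr1:100168611-100170177 (0.50, FDR 0.093) and chr1:100171129-100171675 (0.47, FDR 0.182). The former was not called without adult library 5 (FDR 0.318), adult library 6 (FDR 0.311), P10 library 2 (FDR 0.220) or P10 library 3 (FDR 0.246), and the latter was called in 1 of the 6 fits, the one without adult library 4.

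Receptor ACS came in runs, that is, stretches of neighbouring ACS that are all nearest to receptor genes. There were 139 runs, of which 52 held 10 or more ACS and together 1199 of the 1525. Of these 52 runs, 21 had no called ACS, and runs of like size among the other ACS were not counted. A few genes took many ACS. Olr1645 had 100, Vom2r9 93, Vom2r1 49 (a symbol that stands for genes on chromosomes 1 and 10), Olr1217 43 and Olr1455 40, whereas 139 symbols had 1 ACS each. Among 71 symbols with a call, 25 had Up calls, 34 had Down calls and 12 had both.

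The longest run reached from Olr1641 to Olr1645 on chromosome 15 (chr15:32660719-34724443), with 101 ACS between those of Sall2 and Dad1. Median levels were 1.81, 2.43 and 2.58 CPM in adults and 2.23, 3.21 and 2.80 CPM in P10 islets. It held 5 Up and 11 Down ACS, with a median log2 fold change of -0.27. All were of Olr1645, whose counts were 4 and 5 without adult library 4, 3 and 16 without P10 library 1, 3 and 0 without P10 library 2, and 4 and 2 without P10 library 3. In GRCr8 Sall2 and Dad1 start 4152 kb apart, whereas the run covers 2064 kb on Rn5. Between these genes GRCr8 has 227 annotated entries, of which 7 are receptor genes and 181 are gene segments. Trav12-3, a T cell receptor alpha segment, is among the named entries. The T cell receptor alpha and delta genes, which are rearranged in T cells, are known to lie beside olfactory receptor genes. The strongest Up ACS by fold in the run (chr15:33722788-33723092), 955758 bp from Olr1645, had 7.50, 12.6 and 9.02 CPM in adults and 2.42, 4.07 and 2.22 CPM in P10 islets (log2 fold change 1.76, standard error 0.30, FDR 0.00022). A stronger site (chr15:33106717-33107287) had 35.4, 32.8 and 41.8 CPM against 12.5, 19.4 and 16.8 CPM (log2 fold change 1.18, FDR 0.00015). Both were called without any one library, and in both the ages were apart. The immune markers had no TSS-class ACS, so the share of T cells in the libraries could not be read from them.

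Vom2r9 formed the second run. Of its 93 ACS, 0 lay inside the gene and 81 lay more than 100 kb from it. The run covers 644 kb on Rn5, and the ACS on either side are assigned to RGD1560718 and Dact2. In GRCr8 these 2 genes start 6151 kb apart, with 9 receptor genes between them, Vom2r9 included. The 93 ACS had a median of 25.4 CPM, against 2.27 CPM for the 308 other Vom2r ACS. Median levels were 19.1, 39.2 and 26.2 CPM in adults and 20.5, 24.6 and 23.2 CPM in P10 islets. Of the 93, 2 were Up (log2 fold changes of 0.44 and 0.43) and 0 Down, and 7 had an unadjusted p-value under 0.05 in edgeR. The Up count was 59 without adult library 4 and 0 without adult library 5, P10 library 1, P10 library 2 or P10 library 3.

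The other 3 of the 5 longest runs had few calls. The run from Olr1199 to Olr1219 on chromosome 8 held 73 ACS (median 4.92 CPM) with 1 Up and 0 Down. That from Olr1568 to Olr1570 on chromosome 11 held 43 ACS (median 1.47 CPM) with 0 calls by edgeR and 0 unadjusted p-values under 0.05. That of Olr1455, also on chromosome 11, held 40 ACS (median 1.79 CPM) with 3 Up and 2 Down.

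In GRCr8 the receptor genes of some runs did not lie between the genes that flank the run on Rn5. Of the 52 runs of 10 or more ACS, 48 had both flanking genes on the same chromosome in GRCr8. In 35 of these, with 823 ACS, at least 1 of the run's receptor genes lay between the flanking genes, and 26 ACS were Up (3.16%) and 40 Down (4.86%). In the other 13 runs, with 287 ACS, none did, and 16 ACS were Up (5.57%) and 7 Down (2.44%). These shares stand beside 12.3% and 6.63% over all ACS, and their difference was not tested. The Olr1455 run is one of these, as is that from Olr1199 to Olr1219. Between its flanking genes, Morc1 and Cd96, GRCr8 has 4 named coding genes, C11H3orf85, Dppa2, Dppa4 and Nectin3, and no receptor, while both gene IDs behind the symbol Olr1455 lie on chromosome 10. The run of Taar8c, between Eya4 and Tcf21, and that of Vom2r37, between Siglec5 and Klk1c12, are also among them, as is that of Olr848 between Lppr1 and Smc2, which had 5 Up and 1 Down ACS of 19. The receptor names of these runs come from the Rn5 annotation. A run counts among the 13 whether its receptor genes or a flanking gene lie elsewhere in GRCr8, and these were not told apart. The run from Olr170 to Olr156 is among them. Its flanking genes start 27.7 kb apart in GRCr8 with 0 entries between, and its 6 receptor gene IDs are on the same chromosome as in Rn5.

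A gene of the X chromosome, Olr1765 (Or5o1), had calls in both directions, 3 Up and 4 Down of 19 ACS (chosen after the values were seen). These are 15.8% and 21.1%, beside 12.3% and 6.63% over all ACS. The ACS chrX:136539121-136539747 was Down, with 3.16, 3.99 and 3.87 CPM in adults and 8.83, 5.85 and 9.36 CPM in P10 islets (log2 fold change -1.13, standard error 0.28, FDR 0.0091). The ages were apart, and the call held without any one library. The ACS chrX:136447703-136447951 was Up, with 7.95, 2.92 and 6.19 CPM against 2.14, 3.00 and 2.64 CPM (log2 fold change 1.14, FDR 0.029). Adult library 5 lay among the P10 libraries there, and the call was lost without adult library 4 (FDR 0.239). The adults were all male and the pups of both sexes, and the part of sex in the values of this chromosome was not tested.

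Among ACS nearest to genes that work with the receptors, those of transduction genes had a larger share of Up calls than those of factors of receptor choice. This difference was not tested. The list held 18 transduction genes and 13 factors of receptor choice and olfactory neurons, and 24 of the 31 had ACS, 308 in all. Of these, 44 were Up (14.3%) and 21 Down (6.82%), beside 12.3% and 6.63% over all ACS, with a median log2 fold change of 0.02. The Down count was 12 without adult library 4, 8 without P10 library 2 and 9 without P10 library 3. Transduction genes had 26 Up (20%) and 10 Down (7.69%) of 130 ACS. Gnao1, the G protein subunit of Vom2r signalling that neurons and endocrine cells also use, had 11 Up (30.6%) and 0 Down of 36. It thus held 11 of the 26 Up calls of the transduction genes. Gnai2, the subunit of Vom1r signalling, had 0 Up and 2 Down of 6. Cngb1, a subunit of the olfactory cyclic nucleotide-gated channel, had 3 Up of 5, and Pde1c, a phosphodiesterase, had 3 Up and 5 Down of 19. The other transduction genes with calls were Cnga2 (3 Up of 18), Ric8b (3 Up and 2 Down of 20), Slc24a4 (2 Up of 8), Rtp1 (1 Up of 4) and Cnga4 (1 Down of 2). Factors had 18 Up (10.1%) and 11 Down (6.18%) of 178 ACS, among them Ebf1 with 4 Up and 1 Down of 39 and Lhx2 with 1 of each of 6. Omp, Gnal, Ano2, Gng13, Trpm5, Atf5 and Lbr had no ACS assigned. A name on these lists, too, marks only the nearest annotated gene. Of the 308 ACS, 155 (50.3%, against 34.6% of all ACS) lay more than 100 kb from either end of the gene. Among them were all 18 of Cnga2 and 28 of the 39 of Ebf1.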

How the data were processed

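Bulk ATAC-seq libraries were made from islets, 3 from single adults and 3 from pooled P10 litters. The authors aligned reads with BWA 0.7.13 to Rn5, handled them with SAMtools 1.3, removed mitochondrial reads and reads with MAPQ under 30, called peaks with MACS2 2.1.1 on the pooled samples of each age, and merged both peak lists. They deposited raw integration counts for each ACS in each library, with the nearest gene, its distance and a class. The deposited fold changes and p-values of the authors' own comparison were not used.

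The table lists 101941 entries, and ACS listed for several genes were merged to 101603. Of 1562 receptor entries, 1525 ACS remained, 13 of them also listed with a gene outside the rule. All ACS were fitted with edgeR 4.0.16 (R 4.3.3), using TMM factors, a quasi-likelihood test and both groups in one fit, with no covariate and no filter on low counts. Calls used p under 0.05 and an FDR under 0.2, the limits of the study. Folds are adult over P10. Libraries came from separate rats or litters. On simulated counts of Adult against P10 over 101603 ACS, with 200 changed by a log2 fold of 1, 34% of the changed ACS were called in the right direction. In the data 18.9% of ACS were called. An FDR limit is stricter when few ACS change, so the 34% does not carry over to the data. Alternatives were limma 3.58.1, DESeq2 1.42.0, other scalings, filters, limits and leaving out each library. Libraries held 7916919 to 21168463 integrations, with a median of 36 to 96 per ACS.

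Named ACS were the 3 of each family and direction with the smallest p-values, among called ACS whose groups did not overlap, the TSS-class ACS that were called or among the 5 highest of that class, the 5 highest receptor ACS, the 5 genes with most ACS and the 5 longest runs. Those of the Olr59 to Olr63 array, Vom2r37, Olr1645 and Olr1765 were added after values were seen. The members and lists were chosen with earlier results of these data known. Gene names and order, and promoter sequences, came from RefSeq tables of GRCr8, and no coordinate was converted between builds. Sequence of the ACS themselves was not analysed here.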

Additional observations from a re-analysis of the deposited data

How the results depend on the processing

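No paired analysis was possible because the groups share no replicate numbers. Scaling by the study's total read numbers put the median log2 fold change of all ACS at -0.84 and that of receptor ACS at -0.80, with a median level of 0.089 CPM and 8 Up and 779 Down ACS. By list that setting gave 7 Up and 559 Down in Olr, 1 and 185 in Vom2r, 6 and 171 in signalling genes, 14 calls in Taar and 21 in Vom1r. It reversed the log2 fold change of Taar4 to -0.22, Olr386 to -0.19, Olr898 to -0.73, Olr61 to -0.42, Olr60 to -0.39, an ACS of Olr63 to -0.24, one of Olr1645 to -0.24 and one of Olr1765 to -0.12. Those of Vom2r37 became -0.33, -0.47, -0.090, -0.34, -0.37 and -0.061, all above the median of all ACS. An FDR under 0.05 left 33 Up and 18 Down (background 7.06% and 1.91%), with 25 and 17 in Olr, 6 and 0 in Vom2r, 2 calls in Taar, 1 in Vom1r, and 28 and 3 in signalling genes. Within 100 kb of the gene there were 35 Up and 40 Down at a median of 2.04 CPM, with 24 and 33 in Olr, 7 Up in Vom2r, and 20 and 11 in signalling genes. Receptor ACS inside or touching the gene were 6% Up and 3% Down, against 12.2% and 7.05% of the other ACS. Outside the gene within 10 kb they were 1.60% and 3.19%, against 9.26% and 7.19%. From 10 to 100 kb they were 4.36% and 4.91%, against 12.9% and 6.66%. With a mean of 50 counts or more, the median was 8.60 CPM over 524 receptor ACS, with 38 Up, 33 Down in Olr, 5 Up and 9 Down in Vom2r and 1 call in Vom1r. Column sums gave 14 Down and cyclic loess 11 Down in Vom2r. Vom1r had 1 call with voom, 0 with DESeq2 and 1 with filterByExpr. Olr898, with no call, was at -0.035 with column sums and -0.031 with the count minimum. In the fits without 1 library it ran from -0.13 to 0.22, an ACS of Vom2r1 from -0.14 to 0.037 and Olr542 from -0.26 to 0.14, all with no call. Over the fits without 1 library, Up ran from 38 to 125 and Down from 27 to 87. For Olr these were 27 to 47 and 24 to 72, for Vom2r 6 to 83 and 0 to 12, for Taar 2 to 5 calls, for Vom1r 1 to 2, and for signalling genes 30 to 48 and 8 to 23. Without the ACS of Vom2r9 there were 57 Up and 65 Down, and without those of Olr1641 and Olr1645 54 and 54 (both settings chosen after the data were seen). Apart from total reads, the named ACS kept their direction and their call, or lack of one, in 650 values, lost a call in 157, gained one in 6 and changed sign in 6. The causes were not tested. Of the 1525 receptor ACS, 448 had a mean under 20 counts per library, and 0 of these were Up and 16 Down.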

Other observations

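Other chemosensory receptor genes, chosen after the data were seen, had calls in both directions. Bitter taste receptor genes (Tas2r) had 47 ACS with 7 Up and 7 Down (14.9% each), beside 12.3% and 6.63% over all ACS. Sweet and umami receptor genes (Tas1r) had 12 with 0 Up and 1 Down. Itch receptor genes of the Mrgpr family had 30 with 1 Up and 0 Down, and formyl peptide receptor genes (Fpr) had 5 with 0 called by edgeR. Over all 94 ACS of 23 genes, 8 were Up and 8 Down (8.51% each).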
